A study of Oryza sativa Indica Group with 24 samples.

Results

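Leaves of field-grown rice were examined just after flowering, on days 67 and 63 after germination, in 6 of the 24 arrays of the series: every array of these ages for which the label gives mild, moderate or severe drought. The plants were Oryza sativa of the Indica Group, cultivar Nagina 22, transplanted at 15 days of age, kept under standing water at 100% field capacity up to day 30, and dried down from day 31 over about 7 days. Stressed plots were then held at 60% (mild), 40% (moderate) or 15% (severe) of field capacity, the water that a drained soil retains, and had been under treatment for 29 days on day 67 and 25 days on day 63; control plots stayed at 100%. The labels count both days as post-anthesis and seed setting, and each file gives leaves as its tissue, although the source names speak of seedlings and the extraction protocol also mentions panicles. There was 1 array for each level and day, made from 5 leaves per plot, with stressed RNA in channel 2 and control RNA of the same age in channel 1, each labelled with its own Alexa dye. The 3 levels of a day were therefore the only repeats of that day. They may share their control RNA, and the p-values measure the spread between these arrays, not between plots. Stressed RNA was in channel 2 on all 6 arrays. A dye effect common to the arrays therefore stays in every comparison with control and in counts of ratios of the same sign. It cancels in the differences between days and between levels, and its size was not tested.

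During seed setting the leaves feed the developing grain with sugars and with nitrogen drawn from their own proteins, and drought at this age is known to close stomata, raise abscisic acid and hasten leaf senescence. Nagina 22 is an old cultivar widely used as a donor of drought and heat tolerance. A cDNA array carries cloned transcripts on glass, and the ratio of the colours at a spot gives the relative amount of that transcript in stressed over control leaves. The values below are log2 ratios of stress over control after background correction and loess normalization, averaged over the duplicate spots of a clone, so that 1 stands for a doubling and -1 for a halving. Since a whole array is centred by the normalization, a ratio is relative to the typical clone. Fewer cells of a type and less RNA per cell cannot be told apart in such extracts. The files name 7296 clones by plate and well only, and none of these names occurred among 39387 genes of the rice reference table, so clones are given by their printed names. The tissue could not be checked against marker genes for the same reason.

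Many clones were dim. The share of clones above the 95th percentile of the array's empty spots in at least 1 channel was 35.9%, 58.4% and 30.3% on the mild, moderate and severe arrays of day 67, and 64.9%, 65.9% and 28.3% on those of day 63. Duplicate spots correlated at 0.92, 0.81 and 0.85 on day 67 and at 0.73, 0.80 and 0.89 on day 63. The mild array of day 63 stood apart at its lower end. In the last pair of print rows, 11 and 12, its stress channel correlated across clones at 0.61 with the mean of the other 5 arrays, against 0.88 in rows 1 to 10. The lowest value of another array in rows 11 and 12 was 0.70, for the mild array of day 67. In row 12 alone the severe array of day 63 was nearly as low, at 0.33, against 0.30 for the mild array of that day. Some control spots of the mild array of day 63 also differed: spots named rYIR08 had a median log2 ratio of -1.16 there and 1.56 to 3.38 on the other 5 arrays. On that mild array neither signal of rYIR08 was above the empty spots, at 0.169 and 0.188 times their 95th percentile (stress and control channels). Counts of calls, and of clones without overlap, are given with and without this array.

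The extent of the response differed between the days and between the levels. On day 67 the mild array had 468 clones with a ratio of at least 2-fold (6.41%), the moderate array 173 (2.37%) and the severe array 485 (6.65%). On day 63 the mild array had 55 such clones (0.754%), the moderate array 64 (0.877%) and the severe array 470 (6.44%). Lower signal in stressed leaves prevailed on day 67 at every level, with 434 (5.95%), 162 (2.22%) and 313 clones (4.29%) lower against 34 (0.466%), 11 (0.151%) and 172 (2.36%) higher on the mild, moderate and severe arrays. On day 63 the severe array had the opposite balance, with 351 clones higher (4.81%) and 119 lower (1.63%). The mild array of day 63 had 55 lower and 0 higher, and the moderate array 44 higher (0.603%) and 20 lower (0.274%). Among the 7 days with scanner files the mean share was smallest on day 63 (2.69% ± 3.25, SD, n = 3 arrays) and next smallest on day 67 (5.14% ± 2.40, SD, n = 3), while the other days ran from 5.72% on day 59 to 15.9% on day 71. These shares have 1 array each and were not tested.

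**Figure D1:**
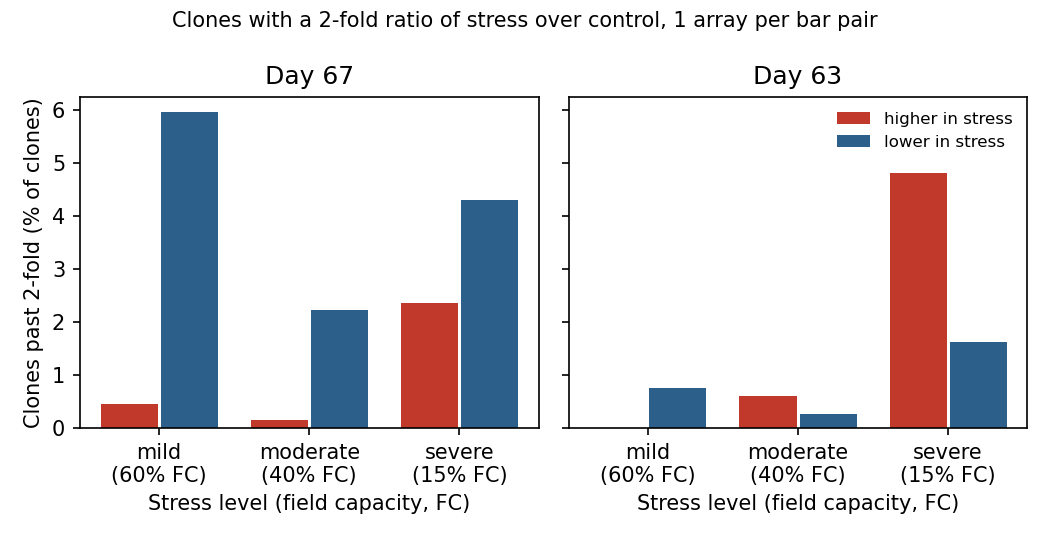
Share of clones (percent, vertical axis) with a ratio of at least 2-fold on each array of day 67 (left) and day 63 (right), by stress level; red bars are clones higher and blue bars clones lower in stressed leaves, 1 array per bar pair. Blue bars exceed red ones on all 3 arrays of day 67 (5.95%, 2.22% and 4.29% lower), and the tallest red bar is that of the severe array of day 63 (4.81%).

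The ratio also depended on where a clone was printed. The array has 12 print rows of blocks, and the median ratio of a row ran between -0.35 and 0.41 on the mild, -0.49 and 0.25 on the moderate and -0.61 and 0.18 on the severe array of day 67. On day 63 it ran between -0.30 and 0.15, -0.39 and 0.26, and -0.51 and 0.37 on the mild, moderate and severe arrays. Differences between the 48 print blocks made up 22.3% to 39.6% of the variance of the ratios on the 6 arrays. Severe day 63 was the array whose middle rows were raised, with a median of 0.37 in row 5 against -0.17 in row 1 and -0.51 in row 12. Loess curves fitted within each block (print-tip loess) remove such differences, together with any real difference between the clones of the blocks. With them the shares past 2-fold were 1.67%, 2.06% and 3.66% on day 67 and 0.164%, 0.329% and 1.06% on day 63, for mild, moderate and severe. The mild and moderate arrays of day 67 stood above those of day 63 under every setting tried. The severe arrays did not keep an order: day 67 had 12.8% against 18.8% on day 63 with median centring, 3.28% against 4.28% without background correction, and 5.34% against 6.37% in print rows 1 to 10.

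**Figure D2:**
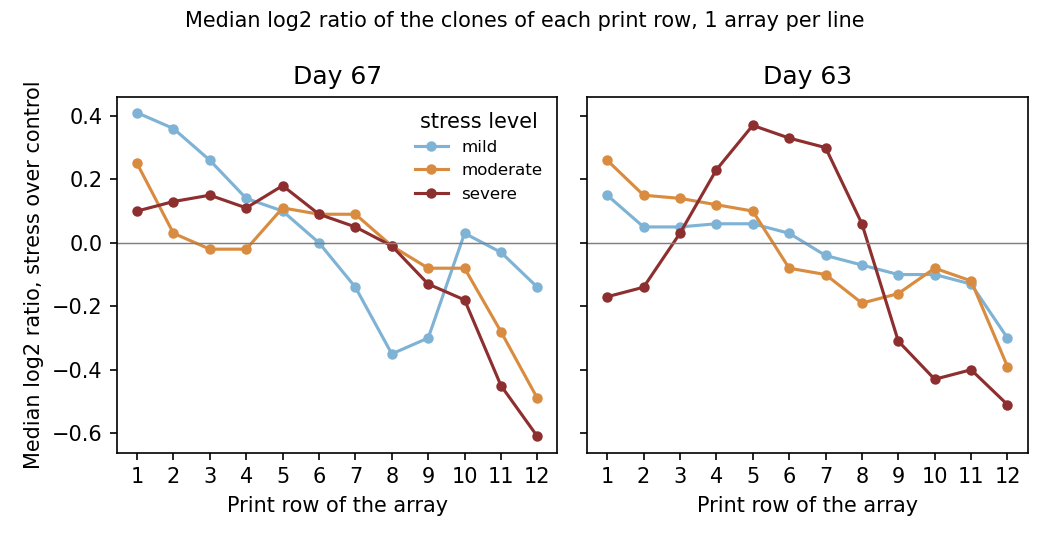
Median log2 ratio of stress over control (vertical axis) of the clones in each of the 12 print rows (horizontal axis), day 67 left and day 63 right, 1 line per array. The lowest row median is that of row 12 on 5 of the 6 arrays; the severe array of day 63 peaks at 0.37 in row 5 and the mild array of day 67 dips to -0.35 in row 8.

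On day 67, 497 of 7296 clones (6.81%) differed between stressed and control leaves over the 3 levels, 412 lower (5.65%) and 85 higher (1.17%), at an adjusted p under 0.05 (limma, Benjamini-Hochberg over all clones). The median change was -0.90 among the lower clones and 0.75 among the higher ones. Among the 3708 clones above the empty spots on at least 3 of the 6 arrays, 341 were lower and 51 higher (10.6% in both directions together). Both groups were chosen on these same 3 arrays, so their direction there follows from the choice. The lower clones had medians of -0.93, -0.79 and -1.0 on the mild, moderate and severe arrays, while the median over all clones was within 0.03 of 0 on each. The higher clones had medians of 0.58, 0.65 and 0.94. A ratio of at least 2-fold lower on all 3 arrays of the day was found for 47 clones (0.644%), and a ratio of at least 2-fold higher on all 3 for 0. Of the 412 lower clones 276 were also called lower with print-tip loess, and of the 85 higher clones 38 were called higher. The count of 497 calls was 91 without the severe array and 173 without the moderate array of day 67. It was 332 without the mild array of day 63, which enters only through the shared spread.

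Among the called clones above the empty spots on at least 3 arrays, the largest decrease on day 67 was that of NL13_A08, printed in row 2. Its log2 ratio was -2.53, -2.35 and -2.21 on the mild, moderate and severe arrays of day 67, and -0.41, -0.25 and -0.59 on those of day 63, so that the days did not overlap and the 3 levels lay close together. Its raw stress signal on day 67 was 3020, 1460 and 686 units of intensity, beside control signals of 36100, 18200 and 11800. The mean fall on day 67 was 5.14-fold (log2 -2.36 ± 0.16 SE, limma adjusted p = 4.47e-05). NL13_A08 and the next 2 clones by size stayed past the threshold on day 67 under every alternative run for them that used more than 1 array of that day. MK_PG11_C02 lies outside print rows 1 to 10 and has no value under that restriction.

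NL_9_68, printed in row 8, had log2 ratios of -3.11, -1.91 and -1.25 on the mild, moderate and severe arrays of day 67, against 0.10, -0.08 and 0.19 on day 63. The fall grew smaller from mild to severe stress, and its stress signal on the mild array and both signals on the severe array were not above the empty spots. The mean was -2.09 ± 0.27 (SE, limma adjusted p = 0.00215), given without a fold change because the stress signal was above the empty spots on only 1 of the 3 arrays. MK_PG11_C02, in row 11, had the opposite order of levels on day 67, with -1.42, -2.07 and -2.66 for mild, moderate and severe stress, against -0.36, 0.01 and -0.89 on day 63. Its stress signal on severe day 67 and both signals on mild day 63 were not above the empty spots, so these values are inexact. Its mean was 4.14-fold lower (log2 -2.05 ± 0.24 SE, limma adjusted p = 0.0012).

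The 3 leading higher clones of day 67, NL6_E07, NL18_A04 and NL7_B01, were all printed in row 1, whose median ratio was above 0 on the 3 arrays of that day. NL6_E07 had 1.33, 0.96 and 2.30 on the mild, moderate and severe arrays of day 67, against -0.15, 0.40 and 0.33 on day 63. Its mean was 2.89-fold higher (log2 1.53 ± 0.23 SE, limma adjusted p = 0.00362). With print-tip loess its values on day 67 were 0.58, 0.82 and 2.04. NL18_A04 had 0.68, 2.03 and 1.40 on day 67, against -0.09, 0.51 and -0.16 on day 63, and NL7_B01 had 0.78, 1.03 and 1.62, against -0.06, 0.59 and -0.04. For each of these clones the lowest value of day 67 lay above the highest of day 63. None of the 3 passed the test of the difference between the days, for which limma gave adjusted p-values of 0.0956, 0.119 and 0.163. With the spot diameter of the quantification as a term, the day 67 estimate came from the mild array alone. It was 1.33, 0.68 and 0.78 for NL6_E07, NL18_A04 and NL7_B01.

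**Figure D3:**
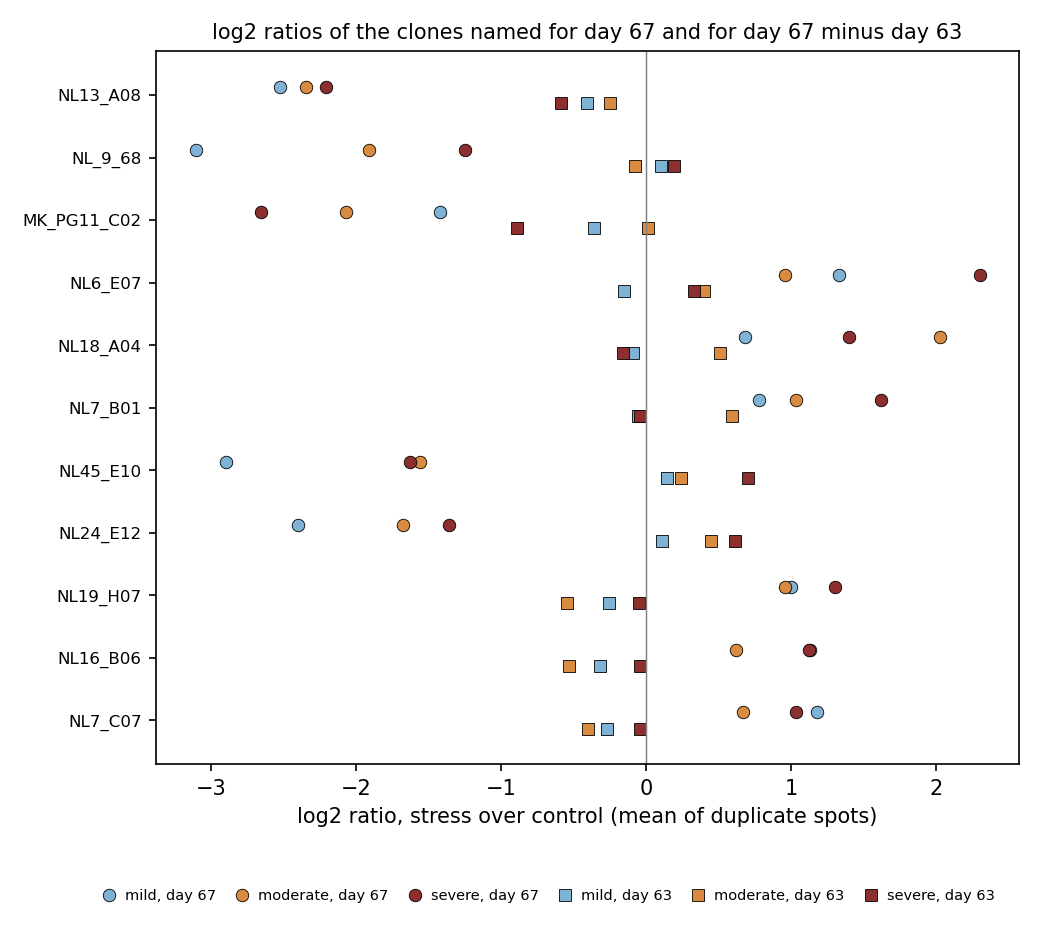
Log2 ratio of stress over control (horizontal axis) of the clones named for day 67 and for the difference between the days; circles are arrays of day 67, squares arrays of day 63, and the colour gives the stress level. In every clone shown the circles lie apart from the squares; NL13_A08 has its circles between -2.53 and -2.21.

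On day 63 no clone passed (0 of 7296, 0%; smallest limma adjusted p = 0.0995), although 1011 clones (13.9%) had an unadjusted p under 0.05, 524 of them lower and 487 higher. The clone nearest to the threshold was NL_14_52, in row 9, with log2 ratios of -0.99, -1.19 and -1.12 on the mild, moderate and severe arrays of day 63 and an SD of 0.10. It was lower on day 67 too, at -0.68, -0.49 and -0.71. NL14_E02 had -0.97, -0.92 and -0.88 on day 63 (SD 0.04), and NL27_G09 had -1.05, -0.97 and -0.95 (SD 0.05). The levels lay close together in these 3 clones, which nevertheless did not pass (limma adjusted p = 0.0995, 0.111 and 0.111). The higher clones nearest to the threshold were NL31_A08, with 0.83, 0.71 and 0.78, NL39_C10, with 0.51, 1.05 and 0.93, and NL9_G08, with 0.83, 0.56 and 0.93, each at a limma adjusted p of 0.111. NL39_C10 was at -0.25, -0.01 and -0.09 on day 67, and NL9_G08 had both signals below the empty spots on every array of day 67. The count for day 63 depended on the settings: print-tip loess gave 50 calls, scale normalization between arrays 149, array weights 227, median centring 253 and the level as a replicate block 284. With that block all 6 clones named here passed (limma adjusted p = 0.00259 to 0.0114). It was 26 without the mild array of day 67, and again 0 without the mild array of day 63 (limma, 980 clones at an unadjusted p under 0.05).

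Setting the days against each other, 65 clones (0.891%) had a lower ratio on day 67 than on day 63 and 3 (0.0411%) a higher one (limma, adjusted p under 0.05). For 808 clones (11.1%) all 3 ratios of day 67 lay below all 3 of day 63, and for 752 (10.3%) they lay above. Among the 3708 clones above the empty spots these numbers were 654 and 170. Without mild day 63 they were 1172 (16.1%) and 1224 (16.8%) over all clones, with fewer arrays to separate. Of the 68 clones called, 66 were also among the 497 called on day 67, which is 97.1% of the 68 and 13.3% of the 497; both comparisons use the day 67 arrays. The 65 clones had medians of -1.30, -1.27 and -1.32 on the mild, moderate and severe arrays of day 67, against -0.03, 0.26 and 0.27 on day 63. The count rested on most of the arrays: it was 107 without the mild, 0 without the moderate and 8 without the severe array of day 67, and 25, 0 and 0 without the mild, moderate and severe arrays of day 63. Where it was 0, limma gave 648 to 927 clones at an unadjusted p under 0.05. With the spread of all 21 arrays the count was also 0 (limma, 382 clones at an unadjusted p under 0.05).

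NL45_E10, in row 6, had the largest fitted difference among the clones that met the conditions for naming. Its log2 ratios were -2.90, -1.56 and -1.63 on the mild, moderate and severe arrays of day 67, against 0.14, 0.24 and 0.70 on day 63. The fitted difference was -2.39 ± 0.35 (SE, limma adjusted p = 0.0209). Its stress signal on mild day 67, its control signal on mild day 63 and both signals on severe day 63 were not above the empty spots, so no fold change is given. NL24_E12, in row 4, had -2.40, -1.68 and -1.36 on day 67, against 0.11, 0.45 and 0.61 on day 63 (difference -2.20 ± 0.29 SE, limma adjusted p = 0.0177). Its control signal was not above the empty spots on any array of day 63, so no fold change is given. NL_9_68, described above, came next, with a difference of -2.16 ± 0.39 (SE, limma adjusted p = 0.0296). NL13_A08 also differed between the days (-1.94 ± 0.23 SE, limma adjusted p = 0.0122). In these 4 clones the stressed leaves were far below control on day 67 and within 0.70 of control, on the log2 scale, on day 63.

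The 3 clones with a higher ratio on day 67, NL19_H07, NL16_B06 and NL7_C07, had control signals at or near the upper limit of the scanner on day 67. NL19_H07 had log2 ratios of 1.00, 0.96 and 1.30 on the mild, moderate and severe arrays of day 67, against -0.26, -0.55 and -0.05 on day 63. The raw stress signal was nevertheless 55100, 43800 and 27600 on day 67, below the control signal of 65500, 62600 and 65500. At least 1 control spot of NL16_B06 and NL7_C07 was saturated on every array of day 67, and both control spots of NL19_H07 on the mild and severe arrays, so no fold change is given for them. On moderate day 63 both stress spots of NL19_H07 and NL16_B06 and 1 control spot of NL19_H07 were saturated too, which limits their ratios there. With median centring, and in the authors' value table, the difference had the opposite sign for all 3.

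Over both days together 329 clones (4.51%) differed, 275 lower (3.77%) and 54 higher (0.74%) in stressed leaves (limma, adjusted p under 0.05). Of these 329 clones, 214 (65%) were also called on day 67 alone, which is 43.1% of the 497 there. NL13_A08 led the lower clones (mean -1.39, limma adjusted p = 0.00034). MK_PG8_F04, in row 12, followed with -1.79, -2.35 and -1.88 on the mild, moderate and severe arrays of day 67, against -0.38, -0.50 and -0.79 on day 63. Its stress signal was not above the empty spots on any array of day 67. Against the lowest signal of clones above the empty spots it was at least 2.62-fold lower on that day (limma adjusted p = 0.000297 for day 67). NL_16_64, in row 10, was more even over the days, with -2.00, -1.07 and -1.14 on day 67, against -0.97, -1.11 and -0.81 on day 63 (mean -1.18 ± 0.14 SE, limma adjusted p = 0.00346). Below 0 on all 6 arrays were 471 clones (6.46%), and above 0 on all 6 were 384 (5.26%). Among the 3708 clones above the empty spots the balance was the other way, with 179 below and 258 above. Without mild day 63, 577 clones (7.91%) lay below 0 and 486 (6.66%) above 0 on the other 5 arrays.

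The clones that led the increase over both days rose most under severe stress of day 67. NL15_C07 had 0.75, 0.62 and 1.87 on the mild, moderate and severe arrays of day 67, against 0.47, 0.90 and 1.18 on day 63 (mean 0.97 ± 0.17 SE, limma adjusted p = 0.014). NL17_H08 had 0.14, 1.26 and 2.00 on day 67, against 0.14, 0.43 and 0.59 on day 63 (limma adjusted p = 0.0491). NL35_C05 had 0.44, 0.99 and 1.80 on day 67, against 0.15, 0.42 and 0.76 on day 63 (limma adjusted p = 0.0295). In NL17_H08 and NL35_C05 the values climbed from mild through moderate to severe stress on both days. The severe minus mild differences of 1.16 and 0.99 did not pass (limma adjusted p = 0.0576 and 0.0818). With print-tip loess NL35_C05 had 0.03, 0.29 and 0.24 on day 63 and did not climb there, while NL17_H08 climbed on both days. Neither signal of NL17_H08 was above the empty spots on mild day 67. The count of 329 moved with single arrays: it was 856, 27 and 66 without the mild, moderate and severe arrays of day 67, and 6 and 66 without the mild and severe arrays of day 63. Fitting the day as a random block left 14 calls, all of them lower. Of the 6 clones named here only NL_16_64 was among them (limma adjusted p = 0.021), and the other 5 had limma adjusted p-values of 0.0519 to 0.145.

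Severe was set against mild stress with the day as a factor. The ratio differed for 161 clones (2.21%), 149 higher (2.04%) and 12 lower (0.164%) under severe stress (limma, adjusted p under 0.05). Both severe ratios lay above both mild ones for 1472 clones (20.2%) and below them for 1370 (18.8%). Against mild day 67 alone these were 2646 (36.3%) and 2792 (38.3%), with fewer arrays to separate. Print position moved with this result: 143 of the 149 higher clones lay in print rows 3 to 8, which is 96% of the calls beside 53.3% of the clones, and 11 of the 12 lower ones lay in row 1. In rows 3 to 8 the severe array of day 63 had its raised medians, and in row 8 the mild array of day 67 had its lowest. With print-tip loess no clone was called (limma; smallest adjusted p = 0.051, 925 clones at an unadjusted p under 0.05). None was called without the mild array of day 67 (limma, 419 at an unadjusted p under 0.05), and 4 without the moderate array of either day. Leaving out mild day 63 gave 220 calls.

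NL22_B10, in row 3, was called in this comparison and in the slope on field capacity. Its log2 ratios were 1.70 under severe and -0.51 under mild stress on day 67, and 2.02 and 0.23 on day 63 (difference 2.00 ± 0.31 SE, limma adjusted p = 0.00266). Its control signal was not above the empty spots on either severe array, nor its stress signal on that of day 63, so no fold change is given. NL42_A07, in row 5, had 0.94 under severe and -0.43 under mild stress on day 67, and 3.00 and 0.13 on day 63 (difference 2.12 ± 0.37 SE, limma adjusted p = 0.00613). Its control signal on the severe array of day 63, 1020 units of intensity, was not above the empty spots, so the 3.00 is not an exact value. NL53_G04, in row 8, had 2.95 under severe and -0.89 under mild stress on day 67, but 0.35 and -0.07 on day 63. Its duplicate spots on the severe array of day 67 lay 1.49 to either side of that mean, so that the value rests mainly on 1 spot.

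Among the clones lower under severe stress, NL10_B09, NL14_F03 and NL10_E11 met the conditions for naming, all in row 1. NL10_B09 had -1.09 under severe and 0.61 under mild stress on day 67, and -0.81 and 0.34 on day 63 (difference -1.43 ± 0.31 SE, limma adjusted p = 0.026). NL14_F03 had -0.58 and 1.08 on day 67, and -0.93 and -0.14 on day 63. With print-tip loess the severe and mild values of NL10_E11 were -0.05 and 0.20 on day 67 and -0.11 and -0.01 on day 63, against -0.57 and 0.94, and -0.65 and 0.12, without it. The control signals of NL10_B09, NL14_F03 and NL10_E11 on severe day 63 were not above the empty spots. Nor were the stress signal of NL10_B09 and both signals of NL10_E11 on severe day 67.

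The slope on field capacity fitted a straight line of the ratio on the water withheld, and 5 clones (0.0685%) rose with it while 0 fell (limma, adjusted p under 0.05; 530 clones fell at an unadjusted p under 0.05). Such a line does not require even steps: NL22_B10 had 0.23, 0.39 and 2.02 on the mild, moderate and severe arrays of day 63. All 5 were also among the 161 clones called between severe and mild stress, which uses the same arrays. NL39_G03 had -0.61, 0.23 and 1.16 on the mild, moderate and severe arrays of day 67 and 0.12, 0.36 and 2.30 on those of day 63. NL34_B04 had -1.14, -0.03 and 0.68 on day 67 and -0.12, 0.52 and 1.79 on day 63. The control signal of NL34_B04 was above the empty spots on only 1 of the 6 arrays, moderate day 63, and that of NL39_G03 on neither severe array, so these ratios are inexact. Their slopes were 0.44 ± 0.07 and 0.41 ± 0.06 per 10 points of field capacity lost (SE, limma adjusted p = 0.0353 each), against 0.45 ± 0.06 for NL22_B10. In all 3 clones the order of the levels was mild, moderate, severe on both days. With print-tip loess NL22_B10 had 0.23, -0.08 and 1.55 on the mild, moderate and severe arrays of day 63. NL39_G03 and NL34_B04 kept the order on both days. Neither signal of NL22_B10 was above the empty spots on moderate day 63. No slope was called with print-tip loess, without background correction or with median centring (limma, 905 to 1390 clones at an unadjusted p under 0.05). Leaving out the mild, moderate or severe array of day 67 gave 0 calls each, and leaving out those of day 63 gave 31, 12 and 0.

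**Figure D4:**
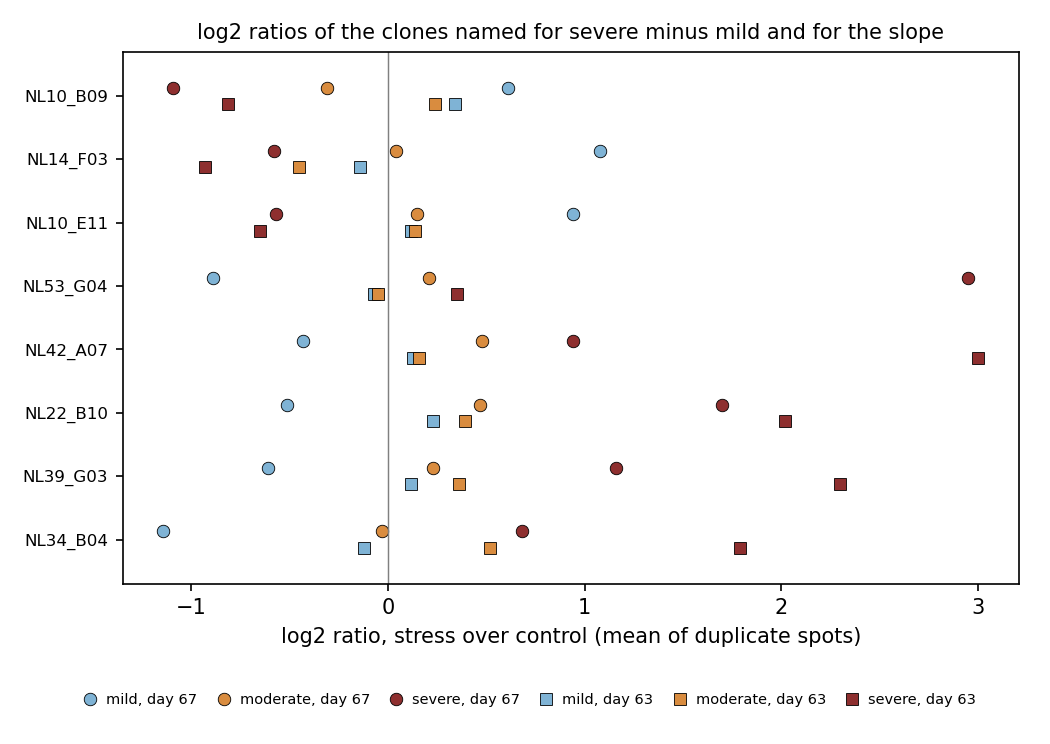
Log2 ratio of stress over control (horizontal axis) of the clones named for severe minus mild stress and for the slope on field capacity; circles are arrays of day 67, squares arrays of day 63, and the colour gives the stress level. Severe values lie beyond mild ones on the same side on both days; the largest are 3.00 for NL42_A07 on day 63, over a control signal not above the empty spots, and 2.95 for NL53_G04 on day 67.

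Among the clones above the empty spots on an array, the extreme clone was in part shared between arrays. NL_14_52 was the lowest on the moderate array of day 63 (-1.19), NL18_A04 the highest on the moderate array of day 67 (2.03) and MK_PG8_F04 the lowest there (-2.35). On the severe array of day 67 the lowest was NL46_B11, at -2.71, which had -1.38 and -1.92 on the mild and moderate arrays of that day and -0.22, -0.39 and -0.01 on day 63. Its stress signal on severe day 67 and both signals on severe day 63 were not above the empty spots. The highest of the mild array of day 67, NL7_B09, had 1.43 there and 0.31 and 0.07 under moderate and severe stress. Among the 4732 such clones of the mild array of day 63 the lowest was NL47_B10, at -1.22, which was below 0 on all 6 arrays, and the highest NL6_D03, at 0.87. NL6_B06 was the highest on the moderate array of day 63 (1.44) and had 1.6 on the severe array of day 67, where neither of its signals was above the empty spots. Dimmer clones reached -1.50 and 0.96 on the mild array and -1.44 and 1.48 on the moderate array of day 63. NL28_B06, the lowest on the severe array of day 63 at -1.93, lay between -0.14 and 0.23 on the other 5. On those 5 arrays its only signal above the empty spots was the stress signal on moderate day 63. Of the 351 clones at least 2-fold higher on the severe array of day 63, 20 were so on the severe array of day 67, which is 5.7% of the 351 and 11.6% of the 172 there. Of the 162 clones at least 2-fold lower on the moderate array of day 67, 120 were so on the severe array of that day (74.1%, and 38.3% of the 313 there). The arrays of a day may share control RNA.

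Across clones, the ratios of the arrays correlated at 0.30, 0.25 and 0.68 within day 67 (mild with moderate, mild with severe, moderate with severe) and at 0.40, 0.33 and 0.35 within day 63. Between the days the 9 pairs ran from -0.22, for mild day 67 with severe day 63, to 0.37, for moderate day 67 with mild day 63 (mean 0.17). The moderate and severe arrays of day 67, which were the most alike, were quantified with a spot diameter of 170 micrometres, and the mild array of day 67 and all arrays of day 63 with 160 micrometres. With the spot diameter as a term, the day 67 estimate came from the mild array alone. That fit therefore cannot separate the diameter from the stress level. Day 63 resembled day 59 about as much as itself, with a mean correlation of 0.34 over 9 pairs beside 0.36 over its own 3. Day 67 had a mean of -0.09 with day 59 and 0.30 with day 71. The arrays of day 59 were quantified with 160 micrometres, like those of day 63, and the arrays of day 71 with 170 micrometres. Whether the spot diameter bears on these correlations was not tested. With earlier ages 2 pairs fell below -0.3: moderate day 63 with mild day 55 (-0.33) and severe day 63 with moderate day 52 (-0.35). Since the labels name the dye of each sample, and ages may respond in opposite ways, no array was turned round. These are correlations across clones, which are not independent of each other, and they carry no p-value.

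The clones called on day 67 were followed over the other ages as a description. The 412 lower clones had a median ratio, averaged over levels, of -0.59, -0.44 and -0.62 on days 45, 52 and 55. It stood at 0.39 on day 59 and -0.08 on day 63, and then at -0.90 and -0.82 on days 67 and 71. The same median over all clones lay between -0.01 and 0.03 on each day. On day 59, 309 of the 412 (75%) lay above 0, and on day 71, 366 (88.8%) lay below. The 65 clones lower on day 67 than on day 63 were chosen for that fall. They had medians of 0.88, 0.19, -1.34 and -0.61 on days 59, 63, 67 and 71, and 64 of them lay above 0 on day 59. The 85 higher clones had medians of -0.01, 0.14, 0.75 and 0.46 on these same 4 days. Days 67 and 63 were chosen for these calls, and no test is attached to the other days' values. The arrays of days 59 and 63 were quantified with a spot diameter of 160 micrometres, like the mild array of day 67. All arrays of days 45, 52, 55 and 71 had 170 micrometres. Age and spot diameter cannot be told apart in this course, and the part of the diameter was not tested.

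**Figure D5:**
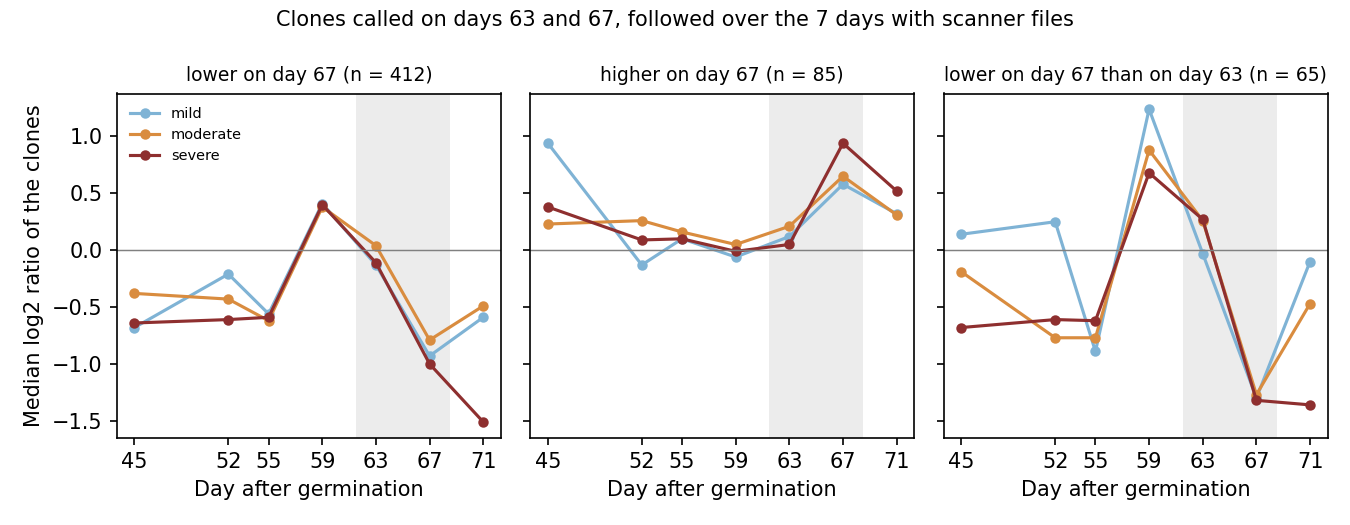
Median log2 ratio of stress over control (vertical axis) of the clones called lower on day 67 (left), higher on day 67 (middle) and lower on day 67 than on day 63 (right), on each of the 7 days with scanner files (horizontal axis), 1 line per stress level; grey marks days 63 and 67. The lower clones stand above 0 on day 59 at all 3 levels and below 0 on days 67 and 71. Arrays of days 59 and 63 had a spot diameter of 160 micrometres, those of days 45, 52, 55 and 71 had 170 micrometres.

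Against the other 5 days with scanner files (45, 52, 55, 59 and 71), no clone differed on days 63 and 67 (0 of 7296, 0%; limma with the day as a random block, 110 clones, 1.51%, at an unadjusted p under 0.05, smallest adjusted p = 1). Under every alternative tried for this comparison the count was also 0, with 34 to 626 clones at an unadjusted p under 0.05 in limma. A single clone had all 6 ratios below those of the other 15 arrays (0.0137%), NL13_A08, and a single clone had all 6 above, NL38_C01. NL13_A08 ranged from -0.24 to 2.50 on the other 15 arrays, with a median of 0.44, so that on days 67 and 63 it was below and elsewhere mostly above control (difference -1.91 ± 0.44 SE, limma adjusted p = 1). NL38_C01 lay between 0.12 and 0.66 on the 6 arrays and between -5.48 and 0.10 on the other 15.

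Clones fall into 3 sets by the start of their names: 1152 named MK, 1536 named NL_ and 4608 named NL. MK clones, in print rows 9 to 12, had median ratios of -0.02, -0.30 and -0.35 on the mild, moderate and severe arrays of day 67, and -0.18, -0.25 and -0.51 on those of day 63. Of the MK clones 121 (10.5%) were lower and 0 higher on day 67, beside 111 lower NL_ clones (7.23%) and 180 lower NL clones (3.91%), against 5.65% of all clones. MK clones were also the dimmest, with 13.8% above the empty spots on at least 3 arrays, against 48.8% of NL_ and 60.8% of NL clones. In the print rows that MK and NL_ share, 9 and 10, 4.76% of MK and 8.96% of NL_ clones were lower on day 67, so that the larger MK share came from rows 11 and 12, where it was 12.9%. With print-tip loess this order turned round: 32 of the 1152 MK clones were lower on day 67, beside 102 of the 1536 NL_ clones and 317 of the 4608 NL clones, and 10, 34 and 94 were higher. In rows 7 and 8, which NL_ and NL share, the shares lower on day 67 were 4.34% and 5.97%.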

How the data were processed

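The deposited scanner files give raw spot intensity and local background per channel, per the file headers (QuantArray); the authors' value table holds log2 ratios centred per spot within each level, so only differences between days could be taken from it. The members and lists were chosen with earlier results of these data known. Background was corrected with normexp (offset 50) and ratios normalized with 1 loess curve per array (span 0.3, 4 iterations; control, empty and ignored spots at weight 0), in limma 3.58.1 under R 4.3.3; duplicate spots were averaged. A filter of 2 background SDs in 1 channel on a share of 0.5 of the arrays removed no clone. Tests were limma fits (lmFit, eBayes) on the 6 arrays, with 1 spread, and on 21 arrays for the comparison with other days. They were tested on simulated data with 100 clones changed by log2 1. Of these, 66, 63 and 92 were recovered for day 63, day 67 and both days, and 35 for day 67 minus day 63. Severe minus mild and the slope recovered 2 each, and the comparison with other days 54. Calls had an adjusted p under 0.05. Named clones are, per comparison and direction, the 3 largest changes among calls of the same sign on every array (for differences, without overlap) and above the empty spots on at least 3 arrays, filled up by smallest p where too few passed, and the extreme clones of each array. A bound ("at least") sets the bright channel against the lowest signal above the empty spots, after quantile normalization of the average signal between arrays. Alternatives changed the background correction, normalization, filter, weights, spread and blocks, or left out 1 array. The number of arrays limits the precision. Python 3.11.15 with matplotlib 3.10.9 drew the plots.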

Additional observations from a re-analysis of the deposited data

Results flagged for a closer look

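The ratio of stress over control of 68 clones differed between day 67 and day 63 by a test of the difference itself (limma, adjusted p under 0.05), 65 lower and 3 higher on day 67.

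Some of the control spots, which enter no test above, carried signal above the empty spots. On the moderate array of day 63 the stress channel of the rYIR08 spots was 4.25 times the 95th percentile of the empty spots, and on the mild array of day 67 the control channel of the rYIR07 spots was 7.37 times that percentile (medians of 6 spots). The median log2 ratio of rYIR07 was -2.76, -2.50 and -2.48 on the mild, moderate and severe arrays of day 67, and -1.26, -2.09 and -3.16 on those of day 63. For rYIR08 it was 1.56, 2.14 and 3.38 on day 67, and -1.16, 1.99 and 2.42 on day 63. The mild array of day 63 was the one on which neither control reached the empty spots in either channel, at 0.474 and 0.733 times the percentile for rYIR07 and 0.169 and 0.188 for rYIR08 (stress and control channels). The labels and files used here do not explain these control names.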

How the results depend on the processing

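Counts of calls below are limma calls at an adjusted p under 0.05, and the cause of a change was not tested. For day 67 against control (497 calls) the count was 937 with median centring, 1136 with array weights, 100 with the spread of all 21 arrays and 91 to 555 when 1 array was left out. For day 63 (0 calls) it was 1 without background correction, 50 with print-tip loess, 253 with median centring, 149 with scale normalization between arrays, 227 with array weights and 0 to 26 with 1 array left out. For both days (329) it was 685 with scale normalization, 196 among clones above the empty spots, 1512 with array weights, 24 with the spread of 21 arrays, 14 with the day as a random block and 6 to 856 with 1 array left out. For day 67 minus day 63 (68) it was 31 with print-tip loess, 920 with median centring, 328 with array weights, 0 with the spread of 21 arrays (382 at an unadjusted p under 0.05), 813 in the value table and 0 to 107 with 1 array left out. Severe minus mild (161) gave 23 without background correction, 0 with print-tip loess, 11 with median centring, 0 with scale normalization (717 at an unadjusted p under 0.05), 26 among clones above the empty spots, 39 with array weights and 0 to 220 with 1 array left out. The slope (5) gave 0 without background correction and with print-tip loess, median centring, scale normalization or array weights (766 to 1390 at an unadjusted p under 0.05), and 0 to 31 with 1 array left out. Days 63 and 67 against the other days gave 0 under all alternatives run. Chosen after seeing the data, the spot diameter as a term gave 26, 326, 204 and 252 calls for day 63, day 67, both days and the difference between the days, and print rows 1 to 10 alone gave 142 for both days.

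The level as a replicate block, shared by the days, gave 1010 calls for day 67, 284 for day 63, 1067 for both days and 307 for the difference. Deviations of arrays of one level from their day means correlated at 0.34, -0.06 and 0.29 (mild, moderate, severe), so the levels were not treated as pairs. The mean share of clones past 2-fold was 9.05%, 2.46% and 7.93% on day 67 with median centring, print-tip loess and clones above the empty spots, and 7.38% on day 63 with median centring. Mean correlations were -0.07 between the days and 0.43 within day 63 with median centring, and 0.31 within day 63 with print-tip loess. Of 620 alternative values of 38 named results, 442 kept direction and side of the threshold, 141 fell short of it, 31 passed it and 6 changed sign. Those 6 were the differences between the days of NL19_H07, NL16_B06 and NL7_C07, at -0.20, -0.32 and -0.36 with median centring and -0.27, -0.41 and -0.44 in the value table. Clones near the empty spots and 1 array per level and day limit all of these values.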
